A study of Bos taurus with 8 samples.

Results

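The genes described here encode the coat of the mammalian egg and proteins that the oocyte secretes or displays at its surface: ZP2, ZP3, ZP4, GDF9, BMP15, OOSP2, ASTL, JUNO and CD9. They were taken from a list of 9 names, and all 9 were found among the 16606 genes of the deposited table, JUNO under its symbol IZUMO1R. RNA came from bovine embryos fertilised in vitro and collected with 4 or 8 cells. They were controls or carried an edit of RPL12, which encodes a protein of the large ribosomal subunit. Each of the 4 groups had 2 libraries and each library was a pool of 5 embryos. In the edited groups zygotes had received PEmax, a prime editor made of a Cas9 nickase and a reverse transcriptase, with a guide RNA by injection into the cytoplasm. The edit is named RPL12A148G in the series' design text. The sample titles call these embryos base edited although the protocol describes prime editing. Whether controls received an injection, what share of alleles was edited, and whether cumulus cells had been taken off before collection is not given. The labels give the source of the 4-cell samples as oocytes, and the titles, which say 4-cell embryo, were followed.

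The zona pellucida is an extracellular glycoprotein coat that the growing oocyte assembles around itself and that sperm bind and cross. In cattle it is built from ZP2, ZP3 and ZP4. GDF9 and BMP15 are paired growth factors of the TGF-beta superfamily through which the oocyte instructs the surrounding granulosa and cumulus cells. ASTL encodes ovastacin, a protease released from cortical granules at fertilisation that cleaves ZP2 and closes the coat to further sperm. JUNO is the receptor on the egg membrane for the sperm protein IZUMO1, and CD9 is a membrane tetraspanin needed on the egg for fusion with sperm and present on many other cell types. OOSP2 is an oocyte-secreted protein. Transcripts of these genes are made during oocyte growth, stored, and inherited by the embryo, whose own genome becomes broadly active in cattle around the 8-cell stage.

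Levels are given as CPM, that is reads of a gene per 1000000 reads of the library. Between 33527531 and 35122409 reads per library fell in genes, and each of the 9 genes had at least 405 reads in every library. RPL12 stood at 159 and 174 CPM in the 4-cell control libraries and at 27.5 and 33.6 CPM in the 4-cell edited ones. In 8-cell embryos it stood at 96.3 and 97.6 CPM in control and at 14.1 and 11.9 CPM in edited libraries. Every edited library was thus below every control library, although a transcript level does not report the edit itself. The 32 listed oocyte-specific transcripts other than the 9 genes summed to between 20483 and 51589 CPM per library, so transcripts of the egg were abundant in all 8. BTG4 alone gave most of each sum, at 12015.5 to 37562.7 CPM, and was itself called higher in edited 4-cell embryos (limma adjusted p-value 0.00115). Of 15 genes listed as first transcribed around genome activation, 9 were in the table. DUXA, KLF17 and ZSCAN4 were called higher in 8-cell than in 4-cell controls, against 2.75% of all genes, and none was called lower. EIF1AX, EIF1AD and KLF5 had lower means in 8-cell controls, EIF1AX at 364 and 248 CPM, and the rest had higher ones. The list summed to 557 and 418 CPM in 4-cell controls and to 341 and 411 CPM in 8-cell controls, so some of its transcripts were present before the 8-cell stage.

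In 4-cell embryos OOSP2 was 7.17-fold higher and CD9 4.38-fold lower in edited than in control libraries, GDF9 and BMP15 were 1.66-fold and 1.68-fold higher, and none of the 3 zona genes passed the test. These folds are on the log2(CPM + 1) scale. Tests were made with limma on the 12129 genes averaging 1 CPM or more, and a gene was called at a Benjamini-Hochberg adjusted p-value under 0.05. Among 4-cell embryos 4 of the 9 were called, against 44.7% of all genes tested. Of these 3 were higher and 1 lower, against 18.9% and 25.8% of all genes. Both edited libraries lay above both controls for 5 of the 9 and below them for 1, against 33.5% and 37.5% of all genes.

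Among 8-cell embryos 2 were called, ZP3 higher and CD9 lower in edited embryos, against 15.6% of all genes, 1.08% called higher and 14.5% lower. Both edited libraries lay above both controls for 7 of the 9 and below them for 1, against 27.7% and 32.7%. Between stages in controls 2 were called, OOSP2 higher and CD9 lower in 8-cell embryos, against 9.02% of all genes, 2.75% higher and 6.27% lower. The libraries did not overlap for 4 genes that were higher and 1 that was lower in 8-cell controls, against 28.4% and 30.8%. Between stages in edited embryos 3 were called, ZP3 and ZP4 higher and OOSP2 lower, against 5.18% of all genes, 1.45% higher and 3.73% lower. There 7 genes were higher and 1 was lower without overlap, against 22.7% and 30.2%.

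The editing effect itself differed between stages by the test for OOSP2 alone of the 9, where it was lower in 8-cell embryos, against 3.96% of all genes, 1.95% in the higher and 2% in the lower direction. The median log2 change of the 9 was 0.44 between edited and control 4-cell embryos and 0.57 between 8-cell ones, where all genes had medians of -0.02 and 0.00458. The 4-cell controls serve both the editing comparison and the stage comparison in controls, so these counts share libraries.

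**Figure D1:**
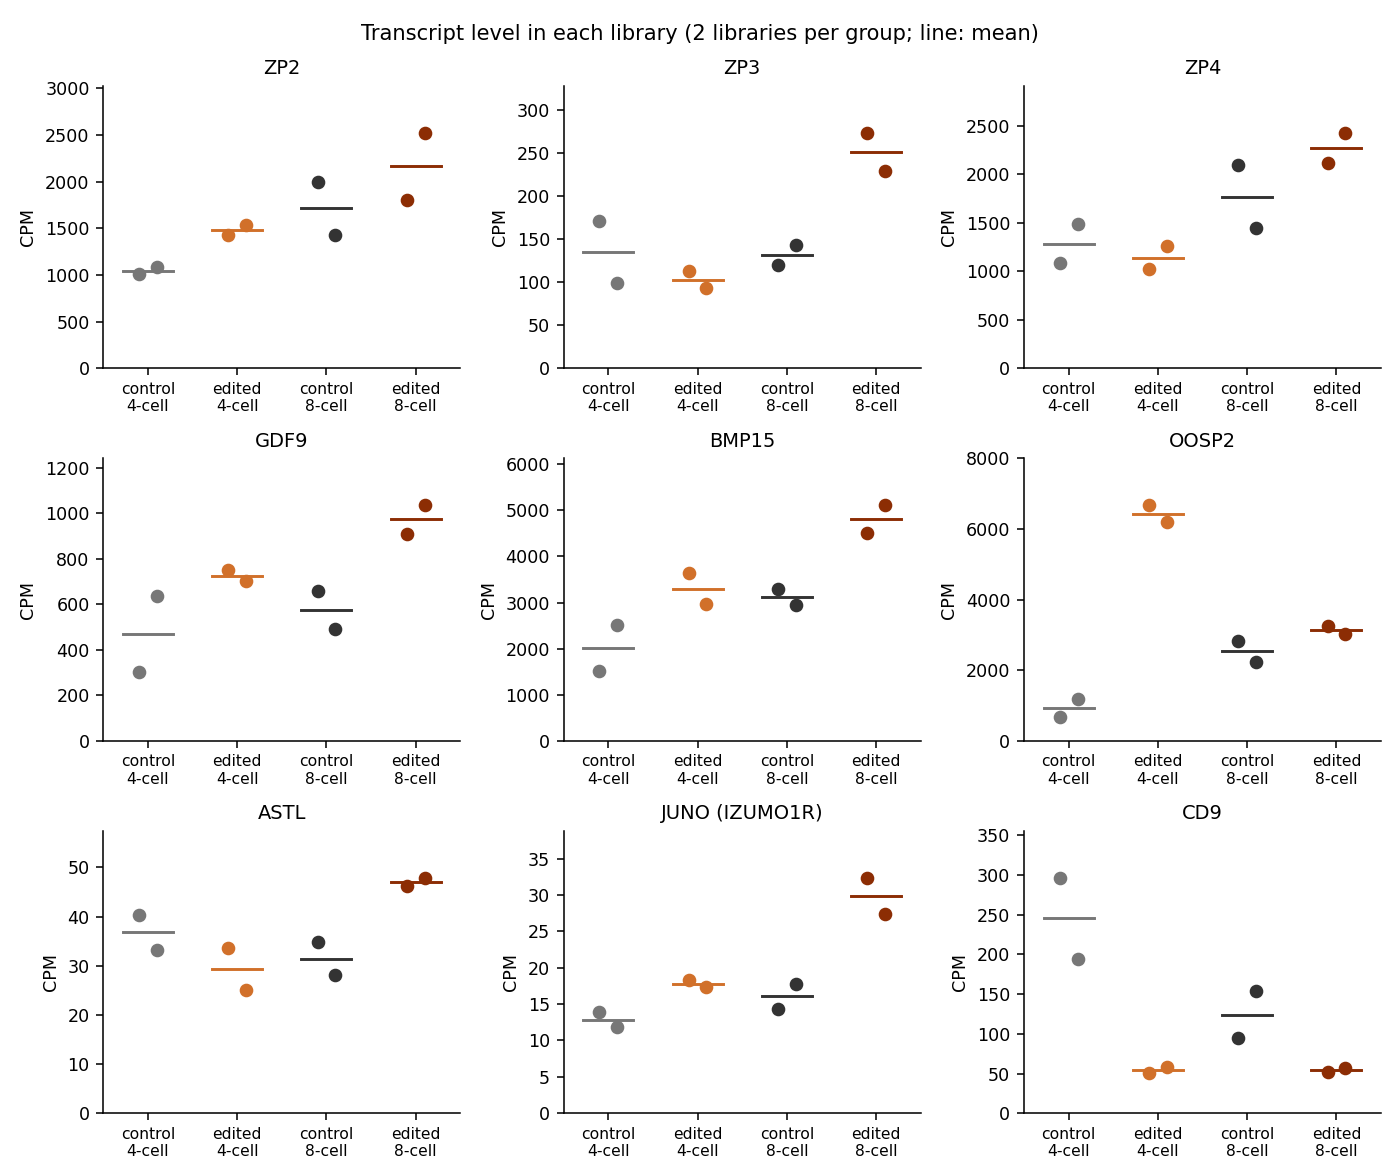
Level of each of the 9 genes in CPM (vertical axes, each from 0) in the 2 libraries of the 4 groups (horizontal axes), with a line at the group mean. OOSP2 is highest in the 4-cell edited libraries, at 6669 and 6196 CPM, CD9 is highest in the 4-cell control libraries, and ZP3, ASTL and JUNO are highest in the 8-cell edited libraries.

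OOSP2 had the widest range of the 9 genes, with the highest library 9.90 times the lowest. It stood at 674 and 1189 CPM in 4-cell control, 6669 and 6196 CPM in 4-cell edited, 2821 and 2242 CPM in 8-cell control, and 3263 and 3012 CPM in 8-cell edited libraries. The order of the groups was thus 4-cell control, 8-cell control, 8-cell edited and 4-cell edited, with no overlap between neighbours, although the step between the 8-cell groups did not pass the test. At the 4-cell stage the log2 fold change between edited and control was 2.84 (SE 0.257, limma adjusted p-value 1.20e-06). At the 8-cell stage it was 0.32, with a 95% interval from -0.23 to 0.86 and an adjusted p-value of 0.471 by limma. The difference between these effects was -2.53 on the log2 scale (SE 0.363, limma adjusted p-value 0.00681).

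The opposite course of OOSP2 between stages made up this difference. In control embryos OOSP2 rose from 931 ± 364 to 2532 ± 409 CPM (SD, n = 2), a log2 fold change of 1.49 (limma adjusted p-value 0.00904). In edited embryos it fell from 6432 ± 335 to 3138 ± 177 CPM (SD, n = 2), by 1.04 on the log2 scale (limma adjusted p-value 0.0317). The 4-cell editing call held with each library left out, at log2 fold changes from 2.43 to 3.25. The others did not hold with every library left out. The control stage change had limma adjusted p-values of 0.0914 without the first 4-cell control and 0.0854 without the first 8-cell control library. The edited stage change lost its call without any 1 of the 4 edited libraries, at adjusted p-values from 0.117 to 0.236, and the difference of effects without either 4-cell edited library, at 0.0732 and 0.0847.

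GDF9 and BMP15, the paired growth factors, were both called higher in edited 4-cell embryos. GDF9 stood at 301 and 636 CPM in 4-cell control and at 750.2 and 703 CPM in 4-cell edited libraries. In 8-cell embryos it stood at 659.5 and 494 CPM in control and at 911 and 1035 CPM in edited libraries. The groups did not overlap at either stage, and the first 4-cell control library was the lowest of all 8. BMP15 stood at 1519 and 2513 CPM in 4-cell control and at 3638 and 2970.2 CPM in 4-cell edited libraries. Among 8-cell libraries it stood at 3297 and 2955 CPM in control and at 4513 and 5108 CPM in edited libraries, again without overlap between edited and control at either stage.

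The 4-cell log2 fold changes were 0.73 for GDF9 (SE 0.284, limma adjusted p-value 0.0470) and 0.75 for BMP15 (SE 0.250, limma adjusted p-value 0.0226). In 8-cell embryos they were 0.77 and 0.62, with limma adjusted p-values of 0.0848 and 0.117, so neither passed. No difference between the 2 effects was called, the differences being 0.0374 (95% interval from -0.81 to 0.89) for GDF9 and -0.13 (from -0.88 to 0.62) for BMP15. The 4-cell value of GDF9 rested on the first control library: without it the log2 fold change was 0.19 (limma adjusted p-value 0.591), and without the second it was 1.27. For BMP15 the value without the first control library was 0.39 (limma adjusted p-value 0.284), and without the first edited library the call was lost as well, at 0.60 and 0.162. GDF9 also missed the threshold without any 1 of the edited libraries, at adjusted p-values from 0.0573 to 0.191, with edgeR (0.0872) and with DESeq2 (0.0978).

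Some calls of the pair were also gained. GDF9 was called higher in edited 8-cell embryos without either 4-cell control library (limma adjusted p-values 0.0105 and 0.0104), where the estimate stayed at 0.77 and the shared spread was smaller. When 8-cell libraries were fitted by themselves both were called there, GDF9 at 0.0169 and BMP15 at 0.0448. Without the second 4-cell control library both were called higher in 8-cell than in 4-cell controls, by 0.92 for GDF9 (limma adjusted p-value 0.0172) and 1.04 for BMP15 (0.0132). With all libraries these stage changes were 0.38 and 0.68, with adjusted p-values of 0.391 and 0.0901.

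A ratio of 2 genes within a library does not depend on how the library is scaled. The log2 ratio of GDF9 to BMP15 lay between -2.58 and -1.98 in the 8 libraries (SD 0.180), and the group means lay between -2.45 and -2.16. The ratio of OOSP2 to BMP15, in contrast, had group means of -1.13 in 4-cell control, 0.97 in 4-cell edited, -0.31 in 8-cell control and -0.62 in 8-cell edited embryos, with SDs between libraries of 0.0656 to 0.208. OOSP2 and BMP15 thus changed unequally, whereas the ratio of GDF9 to BMP15 varied least of the 6 ratios computed. The ratio of ZP2 to ZP4 was -0.28 in 4-cell control and 0.38 in 4-cell edited embryos and lay at -0.04 and -0.09 in the 8-cell groups. No test was made on these ratios.

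**Figure D2:**
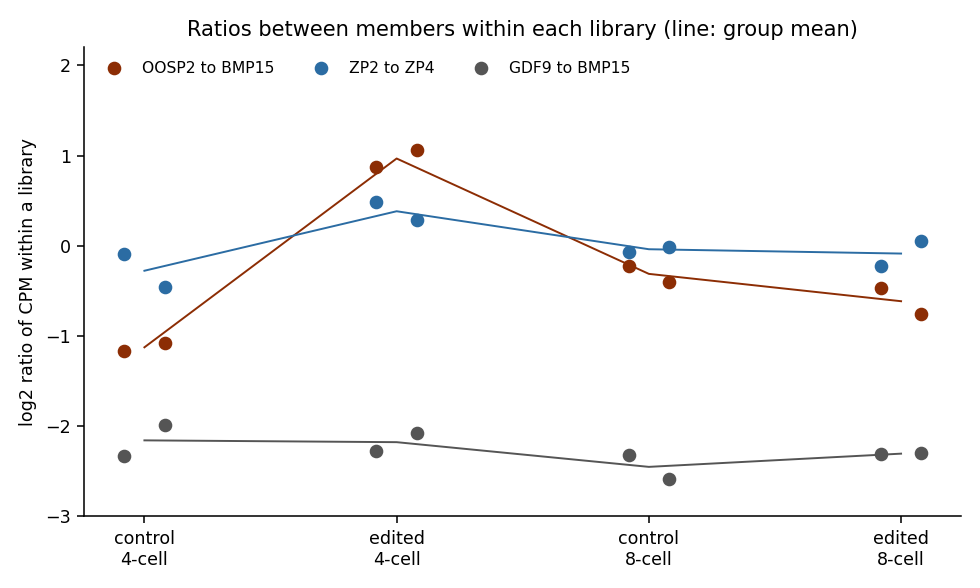
Log2 ratio of the CPM of OOSP2 to BMP15, ZP2 to ZP4 and GDF9 to BMP15 (vertical axis) in each library of the 4 groups (horizontal axis); lines join group means. The GDF9 to BMP15 ratio stays between -2.58 and -1.98, whereas OOSP2 to BMP15 goes from -1.13 in 4-cell control to 0.97 in 4-cell edited embryos.

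Of the zona genes, ZP3 had the only called editing difference. ZP3, in mice the zona protein first described as a sperm receptor, stood at 171 and 98.9 CPM in 4-cell control, 113 and 93.4 CPM in 4-cell edited, 120.4 and 143 CPM in 8-cell control, and 273 and 229 CPM in 8-cell edited libraries. The 8-cell edited libraries were above all others, and the 4-cell control libraries overlapped with the 4-cell edited and the 8-cell control ones. The log2 fold change was 0.93 in 8-cell embryos (SE 0.261, limma adjusted p-value 0.0215), and in 4-cell embryos it was -0.34 with an adjusted p-value of 0.313. The difference between these effects was 1.26 (SE 0.369, limma adjusted p-value 0.0642) and was not called. In edited embryos ZP3 rose between stages from 103 ± 13.8 to 251 ± 31.2 CPM (SD, n = 2), a log2 fold change of 1.28 (limma adjusted p-value 0.0126), and in controls it was 0.01 (95% interval from -0.54 to 0.57).

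The calls of ZP3 were sensitive to single libraries. Without either 8-cell control or either 8-cell edited library the 8-cell editing difference was 0.80 to 1.05 with limma adjusted p-values of 0.0548 to 0.189. The edited stage change lost its call without the second 4-cell edited or either 8-cell edited library, at adjusted p-values from 0.0557 to 0.220. At the 4-cell stage ZP3 was called lower, at -0.73 (limma adjusted p-value 0.0263), without the second control library, and lay at 0.05 without the first. Without that second control library the difference between stages was also called, at 1.65 (adjusted p-value 0.00491), as it was by DESeq2 with all libraries, at 1.35 (adjusted p-value 0.0211).

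ZP2, the zona protein that ovastacin cleaves, and ZP4 did not pass either editing comparison. ZP2 stood at 1013 and 1084 CPM in 4-cell control, 1430.5 and 1531 CPM in 4-cell edited, 1995 and 1432 CPM in 8-cell control, and 1806 and 2521 CPM in 8-cell edited libraries. Edited libraries were above control ones at the 4-cell stage and overlapped with them at the 8-cell stage. The log2 fold changes were 0.50 (95% interval from 0.01 to 0.99, limma adjusted p-value 0.0937) and 0.34 (from -0.16 to 0.83, limma adjusted p-value 0.388). ZP4 stood at 1082 and 1491 CPM in 4-cell control, 1022 and 1261 CPM in 4-cell edited, 2090.5 and 1441 CPM in 8-cell control, and 2117 and 2425 CPM in 8-cell edited libraries. Its editing changes were -0.16 (from -0.67 to 0.35) and 0.38 (from -0.13 to 0.90).

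ZP4 rose between stages in edited embryos, from 1141 ± 169 to 2271 ± 218 CPM (SD, n = 2), or 0.996 on the log2 scale (limma adjusted p-value 0.0296). In controls its change was 0.45 (limma adjusted p-value 0.228). The edited change was not called without any 1 of the 4 edited libraries (adjusted p-values from 0.127 to 0.202), with edgeR (0.0964), without a filter on low values (0.117), with TMM scaling (0.0711) or with scaling to oocyte transcripts, described further on (0.72, 0.154). ZP2 had stage changes of 0.69 in control and 0.53 in edited embryos (limma adjusted p-values 0.0678 and 0.201). Without the second 8-cell control library the control change of ZP2 was called, at 0.93 (adjusted p-value 0.0406). Together the 3 zona genes took from 0.225% of the reads, in the first 4-cell control library, to 0.514%, in the second 8-cell edited library.

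ASTL, the protease of the cortical granules, and JUNO, the receptor for IZUMO1, were not called in any of the 5 comparisons. ASTL stood at 40.4 and 33.2 CPM in 4-cell control, 33.6 and 25.0 CPM in 4-cell edited, 34.8 and 28.2 CPM in 8-cell control, and 46.1 and 47.9 CPM in 8-cell edited libraries. The 8-cell edited libraries were again the highest, as for ZP3. The 8-cell log2 fold change of ASTL was 0.57 (95% interval from -0.00359 to 1.15, limma adjusted p-value 0.187).

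JUNO stood at 13.8 and 11.9 CPM in 4-cell control, 18.3 and 17.3 CPM in 4-cell edited, 14.4 and 17.7 CPM in 8-cell control, and 32.4 and 27.4 CPM in 8-cell edited libraries. Edited libraries were above control ones at both stages. The 8-cell log2 fold change of IZUMO1R was 0.86 (SE 0.298, limma adjusted p-value 0.0639). It was called under 4 of 17 alternatives: by edgeR (0.94, adjusted p-value 0.0475) and by DESeq2 (0.94, adjusted p-value 0.0163), with TMM scaling (adjusted p-value 0.0407) and when only the 8-cell libraries were fitted (adjusted p-value 0.0428). Under the other 13 it was not, with adjusted p-values up to 0.343, and with scaling to oocyte transcripts it was 0.56 (adjusted p-value 0.232).

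CD9 was the only one of the 9 genes below control in edited embryos at both stages. It stood at 296 and 194 CPM in 4-cell control, 50.4 and 57.9 CPM in 4-cell edited, 94.7 and 154 CPM in 8-cell control, and 51.6 and 57.5 CPM in 8-cell edited libraries. All 4 edited libraries lay within 50.4 to 57.9 CPM, below every control library. The log2 fold changes were -2.13 in 4-cell embryos (SE 0.274, limma adjusted p-value 1.93e-05) and -1.13 in 8-cell embryos (SE 0.274, limma adjusted p-value 0.00814). The difference between them, 0.998 (95% interval from 0.18 to 1.82), was not called (limma adjusted p-value 0.136), although it was without the second 4-cell control library, at 1.30 (adjusted p-value 0.0358).

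In control embryos CD9 fell between stages by 0.99 on the log2 scale (limma adjusted p-value 0.0383), whereas in edited embryos its change was 0.01 (95% interval from -0.57 to 0.59). The control change was among the least firm, past the threshold under 6 of 17 alternatives. With 1 library left out it lay between -1.33 and -0.64. Leaving out any 1 of 6 libraries, the first control and both edited ones of each stage, lost the call. So did edgeR (adjusted p-value 0.103), TMM scaling, the fit without a filter on low values and the fit of only the libraries compared. The 8-cell editing call was lost without the second control library (-0.79, limma adjusted p-value 0.165) and without the first edited one (-1.06, adjusted p-value 0.0731). At the 4-cell stage it held with each library left out, from -2.43 to -1.83. The RefSeq annotation places a long noncoding RNA over CD9, and nothing in the libraries or the processing as described lets reads of the pair be told apart.

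**Figure D3:**
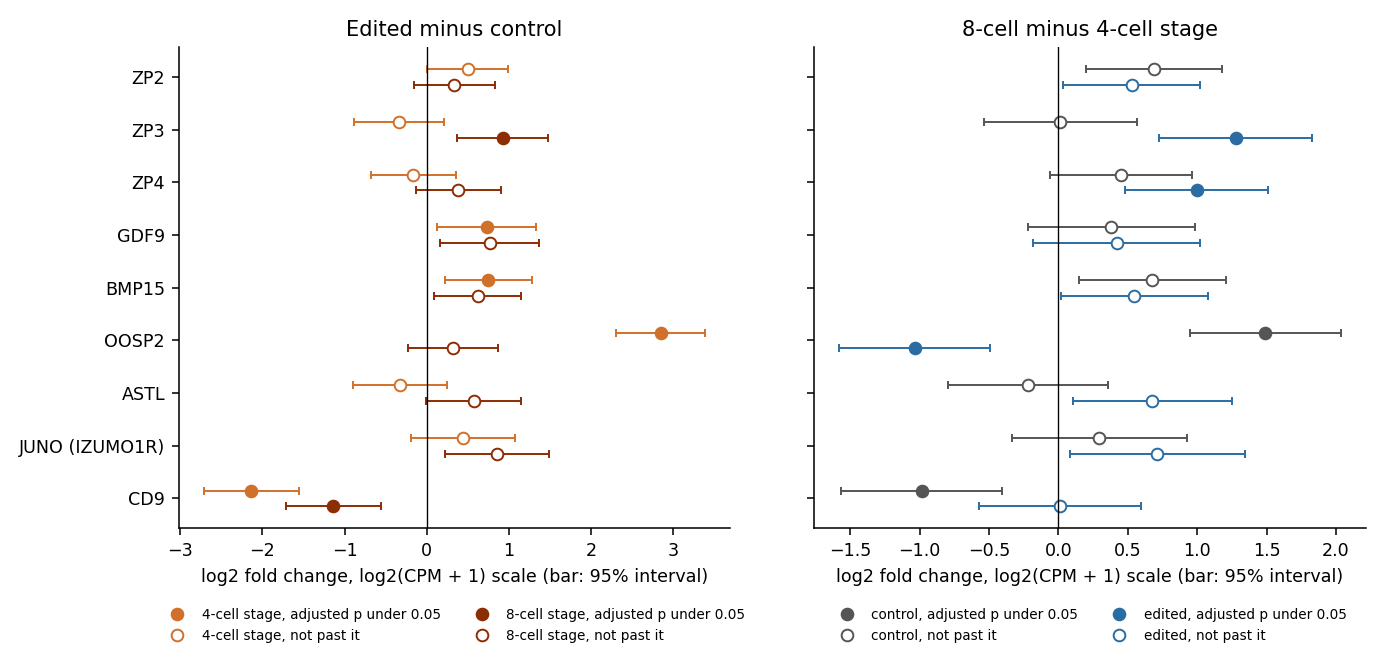
Log2 fold changes on the log2(CPM + 1) scale (horizontal axes) of the 9 genes between edited and control embryos at each stage (left) and between stages in control and in edited embryos (right). Points are limma estimates from 2 libraries per group with 95% intervals, filled where the adjusted p-value is under 0.05. OOSP2 lies at 2.84 and CD9 at -2.13 at the 4-cell stage, and the OOSP2 changes between stages point in opposite directions.

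Most listed transcripts of cumulus and granulosa cells, the somatic cells that surround the oocyte in the follicle, were called lower in edited 4-cell embryos, as CD9 was. The 30 listed markers summed to 6917 and 9531 CPM in 4-cell control, 1925 and 2702 CPM in 4-cell edited, 4387 and 4882 CPM in 8-cell control, and 760 and 1374 CPM in 8-cell edited libraries. Of the 26 tested, 20 were called lower and 2 higher in edited embryos at the 4-cell stage, against 25.8% and 18.9% of all genes. At the 8-cell stage 11 were called lower and none higher, against 14.5% and 1.08%. The medians were -1.56 and -1.47 where those of all genes were -0.02 and 0.00458. LUM, a matrix proteoglycan that gave much of most sums, stood at 120.3 to 5965 CPM, and TIMP1, an inhibitor of matrix proteases, at 91.9 to 1594 CPM. HSD3B1, a steroidogenic enzyme, stood at 283 and 283 CPM in 4-cell control and at 5.87 and 17.8 CPM in 4-cell edited libraries. FSHR stood at 0.270 to 9.68 CPM, CYP19A1 at 0.898 to 2.25 CPM, and FOXL2 and LHCGR were at 0 in 4 and 5 of the 8 libraries.

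Between 1 and 4 of the 30 markers were at 0 in a library. Of the 30, 6 also stand on another of the lists. The 2 called higher were HAS2 and GREM1. Without LUM, a choice made after seeing the data, the other 29 summed to 4039 and 3565 CPM in 4-cell control and to 642 and 806 CPM in 4-cell edited libraries. In 8-cell embryos they summed to 1335 and 2434 CPM in control and to 639.5 and 625 CPM in edited libraries. With LUM the sums of edited libraries were lower in 8-cell than in 4-cell embryos, and without it they lay within 625 to 806 CPM. The 29 did not all stay level there: means went from 195 to 110 CPM for TIMP1 and from 116 to 57.2 CPM for SERPINE2. STAR, called in no comparison, went from 127 to 194 CPM, and HAS2 from 128 to 115 CPM. In the same groups CD9 stood at 54.1 ± 5.30 and 54.5 ± 4.17 CPM (SD, n = 2). The part of these transcripts in the CD9 result was not tested, nor was their part in the higher CPM of the oocyte transcripts. In bulk libraries such as these, fewer cells of a type and less RNA per cell cannot be told apart.

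**Figure D4:**
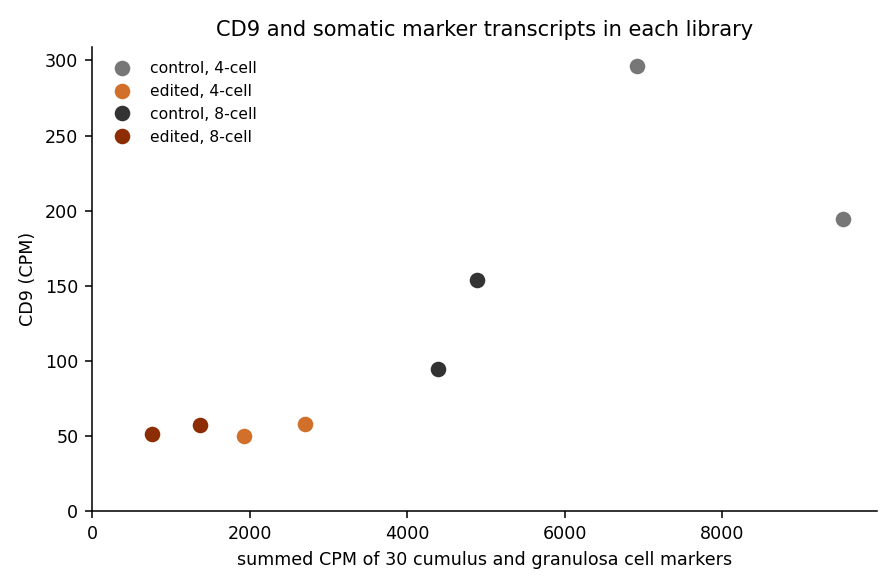
CD9 in CPM (vertical axis) against the summed CPM of 30 cumulus and granulosa cell markers (horizontal axis) in each of the 8 libraries, coloured by group. The 4 edited libraries have the lowest sums, 760 to 2702 CPM, and CD9 between 50.4 and 57.9 CPM. Of the 4-cell controls the first has the higher CD9, 296 CPM, and the lower sum; without LUM its sum is the higher, at 4039 against 3565 CPM.

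Because CPM shares one total among all transcripts of a library, the 9 genes were also read relative to the other oocyte-specific transcripts. Of the 31 tested transcripts of that list, 11 had a higher and 1 a lower level by the test in edited 4-cell embryos, against 18.9% and 25.8% of all genes. The median of the 31 was 0.50. Among them DPPA3, a maternal factor that protects DNA methylation in the zygote, stood at 1489 ± 669 CPM in control and 5483 ± 862 CPM in edited embryos (SD, n = 2). CNOT6L, a deadenylase of maternal RNA, stood at 77.3 ± 35.1 and 328 ± 13.8 CPM, and the oocyte linker histone H1-8, the 1 called lower, at 759 ± 12.4 and 489 ± 188 CPM. In 8-cell embryos the list had 2 called higher, KPNA7 and MOS, against 1.08% of all genes, and a median of 0.30.

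When libraries were scaled so that this list had no median shift, the median of all genes moved to -0.46 in 4-cell and -0.27 in 8-cell embryos. On that scale 1 of the 9 genes was called higher and 3 lower at the 4-cell stage, where the deposited scale gave 3 and 1. OOSP2 kept a log2 fold change of 2.33 (limma adjusted p-value 3.09e-05) and CD9 one of -2.65 (adjusted p-value 1.07e-05). GDF9 and BMP15 stood at 0.21 and 0.23 with adjusted p-values of 0.638 and 0.561, and were not called. ZP3 and ASTL were called lower, at -0.85 and -0.83 (adjusted p-values 0.0190 and 0.0196). ZP2 and JUNO changed sign to -0.0188 and -0.042. In 8-cell embryos CD9 alone was called, at -1.44, and ZP3 stood at 0.61 (adjusted p-value 0.139). The difference of the OOSP2 effect between stages was -2.32 (adjusted p-value 0.0265). Over all genes the split of 4-cell calls was 2288 higher and 3131 lower as deposited and 702 and 4413 on that scale.

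Other genes of the same processes were read from lists. Of 9 transcription factors that act on zona and other oocyte genes, all were tested, with a median of 0.55 at the 4-cell stage. There 4 were called higher and none lower, against 18.9% and 25.8% of all genes. SOHLH2, a germ cell factor of early follicles, stood at 206 ± 38.5 CPM in control and 336 ± 24.2 CPM in edited embryos (SD, n = 2), and LHX8 at 39.8 ± 11.1 and 68.7 ± 4.74 CPM. The others called were TBPL2, an oocyte form of the TATA-binding protein, and TCF3, a partner of FIGLA. FIGLA itself was not called, at 0.10 (limma adjusted p-value 0.820). NOBOX (0.55), SOHLH1 (0.15), TCF12 (0.33) and TAF4B (0.13) were not called either. In 8-cell embryos TBPL2 alone was called, at 0.97, against 1.08% of all genes called higher. On the oocyte-transcript scale none of the 9 was called at either stage.

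Receptors and SMADs through which GDF9 and BMP15 act had 11 of 14 tested, with a median of 0.64 at the 4-cell stage. There 4 were called higher and none lower, against 18.9% and 25.8% of all genes. BMPR2, the type II receptor of both factors, stood at 23.8 ± 10.2 CPM in control and 88.6 ± 8.47 CPM in edited embryos (SD, n = 2), or 1.91 on the log2 scale (SE 0.287, limma adjusted p-value 7.56e-05). SMAD5 stood at 76.2 ± 18.9 and 173 ± 9.37 CPM, and BMPR1A and BMPR1B were the others called. None was called at the 8-cell stage, against 15.6% of all genes, and on the oocyte-transcript scale 2 were called higher at the 4-cell stage. Of 5 listed proprotein convertases, enzymes that cut growth factor precursors, 3 were tested. PCSK7 alone was called, lower at both stages, with 7.47 ± 1.81 CPM in control and 1.51 ± 0.0703 CPM in edited 4-cell embryos. Calls in that direction made up 25.8% of all genes in the 4-cell comparison and 14.5% in the 8-cell one. FURIN (0.52, then 0.51) and PCSK5 (0.69, then 0.58) had positive changes that were not called. The list medians were positive as well, 0.52 and then 0.51.

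Of 8 listed target genes of the pair in cumulus cells, 7 were tested, with a median of 0.000446 in edited 4-cell embryos. There 2 were called higher and 2 lower, against 18.9% and 25.8% of all genes. HAS2, which makes the hyaluronan of the expanding cumulus, stood at 39.8 ± 22.0 CPM in control and 128 ± 5.47 CPM in edited embryos, and GREM1, a BMP antagonist, at 3.37 ± 0.0337 and 8.17 ± 0.347 CPM. FST, which binds activin, stood at 139 ± 53.6 and 4.07 ± 1.70 CPM, and TNFAIP6, which links hyaluronan to protein, at 1.93 ± 1.05 and 0.102 ± 0.145 CPM. Errors are SDs of 2 libraries. Calls thus went both ways, as they did over all genes, and on the oocyte-transcript scale the split was 1 higher and 2 lower. HAS2, GREM1, FST and TNFAIP6 also stand on the list of cumulus and granulosa cell markers, so the same calls were counted there as well.

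Of 12 other genes of gamete fusion, cortical granules and the egg coat, 8 were tested, with medians of -1.51 in 4-cell and -0.83 in 8-cell embryos. At each stage 5 were called lower and none higher. Over all genes 25.8% were called lower in 4-cell and 14.5% in 8-cell embryos. CD81, a tetraspanin close to CD9, stood at 354 ± 141 CPM in control and 39.8 ± 4.18 CPM in edited embryos at the 4-cell stage, and at 97.8 ± 20.6 and 37.0 ± 1.34 CPM at the 8-cell stage (SD, n = 2). Its edited libraries lay between 36.1 and 42.7 CPM over both stages. PLAT, the tissue plasminogen activator, stood at 339 ± 132 and 49.0 ± 10.1 CPM at the 4-cell stage. The other 3 called at both stages were SERPINE2, CALR and PDIA3. SERPINE2 also stands on the list of cumulus and granulosa cell markers, so its calls were counted there as well. On the oocyte-transcript scale 7 of the 8 were called lower in 4-cell and 6 in 8-cell embryos. Of other oocyte-secreted factors and their partners 4 of 10 were tested. KIT and its ligand KITLG were called higher at the 4-cell stage (0.93 and 0.87), against 18.9% of all genes, and not on the oocyte-transcript scale. KIT is itself among the transcripts that set that scale, so its result there is not independent of it.

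For each of the 9 genes the 2 most similar of 7435 genes averaging 10 CPM or more were found by Pearson correlation of log2(CPM + 1) over the 8 libraries, which share their groups. OOSP2 was most like SNX16 and ESRP1 (r = 0.997 and 0.994), CD9 most like MPC2 and TMEM205 (0.996 and 0.996), BMP15 most like DTL and PRC1 (0.991 and 0.991), and GDF9 most like INTS12 and RRN3 (0.986 and 0.981). ZP2 was most like CENPO (0.975), ZP3 like MKS1 (0.979), ZP4 like RPS6KB1 (0.952), ASTL like KCTD5 (0.978) and JUNO like EIF4E1B (0.979). Among the 9 themselves the closest pair was GDF9 and BMP15 (0.946), followed by ZP2 with BMP15 (0.865) and ZP3 with ASTL (0.845). Among the zona genes r was 0.796 for ZP2 with ZP4, 0.560 for ZP3 with ZP4 and 0.440 for ZP2 with ZP3. These are the highest values of many and describe likeness only.

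Genes next to the 9 in the RefSeq annotation were looked at after the values were known. Those called in an editing comparison are given with the neighbours of OOSP2 and CD9. DNAH3, LDAF1, ANKS4B, CRYM, DTX2, RYR2, SOWAHA, SHROOM4 and GPAT2 were tested too, and neither editing comparison called them. The share called among all genes was 44.7% for the 4-cell comparison and 15.6% for the 8-cell one. Whether neighbours change together was not tested. UQCRQ, a subunit of respiratory complex III that lies beside GDF9, stood at 457 CPM in 4-cell control and 117 CPM in 4-cell edited embryos, a log2 difference of -1.93 (limma adjusted p-value 4.67e-05) against 0.73 for GDF9, and was also called lower in 8-cell embryos (-1.27, adjusted p-value 0.00371). EZHIP, which lies beyond NUDT10 from BMP15, was called higher in edited 4-cell embryos (1.11, limma adjusted p-value 0.0412), as BMP15 was. In 8-cell embryos EZHIP was not called (-0.40, adjusted p-value 0.583). NUDT10, the nearer gene, was called at neither stage (0.77 and -0.53, limma adjusted p-values 0.131 and 0.435). STARD7, which lies beyond DUSP2 from ASTL, was called lower in edited 8-cell embryos (-1.93, limma adjusted p-value 0.00457), where ASTL had 0.57. DUSP2 was too low to be tested. TCN1 and STX3, the neighbours of OOSP2 present in the table, had 4-cell changes of 0.27 and -0.24 (limma adjusted p-values 0.693 and 0.622), against 2.84 for OOSP2. Beside CD9, TNFRSF1A and PLEKHG6 had log2 changes of -2.16 and -2.17 in 4-cell embryos (limma adjusted p-values 0.000277 and 0.000415). Both were weak, at means of 4.66 and 4.52 CPM in 4-cell control and 0.261 and 0.203 CPM in 4-cell edited libraries. VWF, on the other side, had -0.48 (adjusted p-value 0.236). In 8-cell embryos, where CD9 was called lower, TNFRSF1A had -0.84 and PLEKHG6 -1.04 and neither was called (adjusted p-values 0.162 and 0.0968).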

How the data were processed

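Per the labels' protocols, mRNA of pools of 5 embryos was captured and amplified by Smart-seq chemistry and made into libraries with Nextera XT. The deposited table holds CPM, whose columns sum to between 992528 and 1007024, not raw counts. Trim Galore 0.6.7, HISAT2 2.2.1 and featureCounts 2.0.1 are named in the submitters' processing notes; the build, annotation, strand setting and filters are not given in the sources used here. Of 12 columns, 8 match a library in the labels; 4 were not used. In all 8, 100% of the positive values were whole multiples, within 0.05 reads, of 1 step of 0.0286 to 0.0300 CPM per library, from which reads were recovered; 3 reads correspond to 0.0858 to 0.0899 CPM.

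The main fit was limma 3.58.1 (R 4.3.3) with a trended prior, on log2(CPM + 1), with 1 mean per group over all 8 libraries and genes averaging 1 CPM or more. This understates changes of weak genes. edgeR 4.0.16 and DESeq2 1.42.0 were run on the recovered reads, and called 5169 and 5605 genes at the 4-cell stage. Replicates are labelled as such, but nothing says that they came from separate cultures, so p-values measure the spread between these libraries, which may be technical. Intervals cover this spread only.

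The 9 genes, the lists and the tests were chosen with earlier results of these data known. The rule for naming genes took all 9, RPL12, the 2 genes with the smallest p per direction and list among those called at the 4-cell stage (or the single smallest), and the 2 most alike genes. Other called genes of short lists, marker levels and neighbours were named after their values were seen. All 9 symbols matched the RefSeq table of ARS-UCD2.0, which was used for names and neighbours only. No sequences were used here. Transcript lengths were not used, so CPM of different genes do not rank their transcripts.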

Additional observations from a re-analysis of the deposited data

Results flagged for a closer look

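The editing effect on OOSP2 differed between the stages by limma's test of the difference itself, at -2.53 on the log2 scale (8-cell minus 4-cell effect, SE 0.363, adjusted p-value 0.00681). Edited libraries stood above both control libraries at each stage, by 2.84 in 4-cell and 0.32 in 8-cell embryos. Over 16 other settings the difference lay between -2.93 and -2.12, and 13 of them kept it past the threshold. Groups of 2 libraries are too small for a check of single outlying libraries.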

How the results depend on the processing

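None of the 12 calls among the 45 pairs of gene and comparison changed sign under any alternative, but 10 missed the threshold under at least 1, and 10 of the 33 pairs not called were called under at least 1. The 4-cell changes of OOSP2 and CD9 passed under all 17. Of the 9 genes, 4 were called at the 4-cell stage; without a filter on low values 2 were, and leaving out 1 library gave 2 to 5. At the 8-cell stage 2 were called, 1 without a filter, 5 with only the libraries compared, 1 on the oocyte-transcript scale, and 0 to 3 with 1 library left out. Between stages in controls 2 were called, 1 with a pseudocount of 0.1 CPM, with TMM scaling and with edgeR, 0 without a filter and with only the libraries compared, and 0 to 4 with 1 library left out. Between stages in edited embryos 3 were called, 0 without a filter, 1 with edgeR, and 0 to 3 with 1 library left out. For the difference of effects 1 was called, 0 without a filter, 2 with DESeq2, and 0 to 3 with 1 library left out. Without a filter fewer genes passed over all genes as well, and the count for this difference was 0 with limma, against 2993 genes at an unadjusted p-value under 0.05; edgeR called 18 and DESeq2 1065. Over all genes limma called 1094 between stages in controls, edgeR 88, limma without a filter 1, and limma without the first 4-cell control or the first 8-cell control library 13 and 25.

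Replicate numbers are shared by the groups in the labels, but nothing says that a number marks a shared batch, and deviations of same-numbered libraries correlated between -0.30 and 0.11 across groups. With the replicate block the 9 genes gave 4, 2, 2, 3 and 1 calls in the 5 comparisons, the same counts as without it, and 5224 genes in all were called at the 4-cell stage.

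Signs changed only for values not called. On the oocyte-transcript scale these were ZP2 (-0.0188) and IZUMO1R (-0.042) at the 4-cell stage, ZP3 (-0.46), ZP4 (-0.0249), GDF9 (-0.0937) and IZUMO1R (-0.15) between stages in controls, CD9 (-0.26) between stages in edited embryos, and ZP2 (0.0406) and BMP15 (0.0727) for the difference of effects. The stage change of ZP3 in controls was -0.00999 with edgeR and -0.11 with DESeq2. CD9 between stages in edited embryos was -0.0282 with TMM scaling, -0.037 with edgeR and -0.0454 with DESeq2, and GDF9 for the difference of effects was -0.0345 with TMM scaling. With 1 library left out, values ranged from -0.73 to 0.053 for ZP3 and from -0.39 to 0.0696 for ZP4 at the 4-cell stage. Between stages in controls they ranged from -0.38 to 0.40 for ZP3 and from -0.16 to 0.92 for GDF9, and in edited embryos from -0.0866 to 0.11 for CD9. For the difference of effects they ranged from -0.40 to 0.0793 for ZP2, from -0.50 to 0.58 for GDF9 and from -0.49 to 0.23 for BMP15. A group left with 1 library was assumed to vary like the others. The cause of these changes was not tested. Each of the 9 had 405 reads or more in every library.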
